A study of Mus musculus with 2 samples.

Results

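The planar cell polarity genes described here are Celsr1, Celsr2, Fzd3, Fzd6, Vangl1, Vangl2, Dvl1, Scrib, Ptk7 and Ror2, 10 of the 32285 genes counted. They were chosen by name, as core genes or close partners of this pathway, and each was matched by its symbol in the deposited gene list. Planar cell polarity is the alignment of cells within the plane of a tissue. At each cell border the atypical cadherins of the Celsr family join a Frizzled and Dishevelled complex on 1 cell to a Vangl and Prickle complex on its neighbour. Wnt5a, acting through Ror2, is a well known input, and in the female reproductive tract the pathway is known for its role in oviduct folding and in the shape of uterine glands.

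The data were 2 droplet single-cell RNA libraries of digested whole uterus from female C57BL/6J mice aged 6 months, each a pool of 3 animals. Both groups carry the floxed Prickle1 allele: Prickle1 f/f is the control, and Prickle1 f/f MiC is the conditional knockout (cKO). The labels do not spell out MiC, name the promoter or the cells in which the deletion acts, or say which exons are flanked, and they give both libraries the genotype wild-type. With 1 pooled library per group and cells that are not replicates, no test was possible. Every interval below is a 95% interval of counting error alone, and the spread between mice and preparations is unknown.

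The control-labelled library held 45035801 unique molecular identifiers (UMIs, 1 per captured molecule) and 3490 cells with a median of 4953 UMIs. The cKO-labelled library held 34261441 UMIs and 3586 cells with a median of 4903. Only 6 cell barcodes occurred in both. The 10 genes made up 7448 of the UMIs in cells (0.0198%) of the control-labelled library and 8077 (0.0275%) of the cKO-labelled library. Prickle1 was not lower in the cKO-labelled library: over all cells it had 96 UMIs (2.56 CPM, where all genes of a library sum to 1e6) in the control-labelled library and 265 (9.03 CPM) in the cKO-labelled library. In smooth muscle-like cells it stood at 14.8 and 24.3 CPM (ratio 1.64, interval 0.894 to 3.21), in fibroblast-like cells at 4.37 and 8.92 CPM (2.04, 1.44 to 2.95) and in T or NK-like cells at 5.64 and 19.3 CPM (3.43, 1.43 to 9.94). In epithelium-like cells it had 17 and 5 UMIs (4.13, 1.19 to 11.7). The counts come from the 3′ ends of transcripts, which may lie outside the deleted part, so Prickle1 does not check the labels here. Doublet detection did not work, and doublets must be assumed to remain. Epithelium-like cells were 37.59% of the cells of the control-labelled library (1312) and 3.04% of those of the cKO-labelled library (109), and smooth muscle-like cells were 8.97% (313) and 18.99% (681).

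Ror2 and Ptk7 gave the largest differences within a cell class that also rested on over 100 UMIs in each library, so the 250 bases before their transcription starts are shown, from RefSeq on GRCm38.p6, 5′ to 3′ on the gene's strand. Capitals mark the GC box letters GGGCGG or their reverse complement CCGCCC, a known binding sequence of Sp family factors. The Ror2 window is chr13:53286125-53286374, minus strand, and the Ptk7 window is chr17:46629505-46629754, minus strand.
Ror2: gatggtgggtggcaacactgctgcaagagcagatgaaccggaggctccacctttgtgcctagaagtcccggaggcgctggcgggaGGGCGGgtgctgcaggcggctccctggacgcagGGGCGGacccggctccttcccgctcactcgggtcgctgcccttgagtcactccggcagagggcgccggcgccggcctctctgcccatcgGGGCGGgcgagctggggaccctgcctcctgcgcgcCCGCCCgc
Ptk7: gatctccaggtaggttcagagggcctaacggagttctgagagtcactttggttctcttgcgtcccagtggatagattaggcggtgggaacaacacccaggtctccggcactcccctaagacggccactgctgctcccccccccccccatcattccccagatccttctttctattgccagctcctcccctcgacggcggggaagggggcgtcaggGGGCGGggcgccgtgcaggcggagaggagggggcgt
The Ror2 window is 73.2% G or C with 24 CpG dinucleotides and 4 GC boxes, and the Ptk7 window is 64.0% G or C with 14 CpG and 1 GC box. Over 27025 promoters of the same length the medians were 52.0% and 6.00 CpG, and 32.9% held a GC box on either strand. Neither window holds the TCF/LEF core CTTTGA (14.0% of promoters) or CCAAT (34.5%), searched on both strands with no overlap with the GC box. These matches describe letters, not binding. Sequences were found for 5 of the 10 genes.

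The class that held most UMIs of a gene was often not the same in both libraries. Epithelium-like cells held the largest share of Vangl1 (60.5%), Vangl2 (79.2%), Dvl1 (65.8%), Scrib (60.3%) and Ptk7 (47.2%) in the control-labelled library. Fibroblast-like cells held the largest share of these 5 in the cKO-labelled library (63.3%, 64.7%, 62.1%, 51.5% and 84.2%). Most Fzd6 UMIs lay in epithelium-like cells (81.0%) in the former and in endothelial cells (64.2%) in the latter. The genes are therefore described by their level within a class. Levels are given in CPM, the UMIs of a gene scaled to a class and library total of 1e6. Because UMIs are counted at the 3′ end, CPM does not scale with transcript length. Classes are called by the markers that defined them.

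Celsr1 and Celsr2 encode the atypical cadherins, seven-pass proteins that hold neighbouring cells together across the border. Celsr2 (3:108390851-108415552, minus strand; this and later positions are GRCm38, GENCODE vM21) stood at 21.2 CPM in epithelium-like cells of the control-labelled library and 25.2 CPM in those of the cKO-labelled library, on 401 and 34 UMIs. In fibroblast-like cells it stood at 0.624 and 0.867 CPM. Celsr1 (15:85898929-86033777, minus strand) stood at 8.10 and 14.1 CPM in epithelium-like cells, on 153 and 19 UMIs, and had 0 and 4 UMIs in fibroblast-like cells. Epithelium-like cells held 85.5% of the Celsr1 UMIs of the control-labelled library and 35.2% of those of the cKO-labelled library, where T or NK-like and endothelial cells each held 20.4%. In the endothelial cluster led by lymphatic markers Celsr1 stood at 17.5 and 7.97 CPM, on 8 and 11 UMIs, and its ratio to the epithelial level had intervals that included 1 (0.915 to 4.36 and 0.243 to 1.25). A count of 0 among the UMIs of the 853 fibroblast-like cells of the control-labelled library allows up to 0.312 CPM. In T or NK-like cells Celsr1 had 4 and 11 UMIs (3.76 and 5.74 CPM). The empty droplets of the control-labelled library held 8.09 CPM of Celsr1 and 10.4 CPM of Celsr2, and those of the cKO-labelled library held 0 of both. In the control-labelled library the epithelial level of Celsr1 (8.10 CPM) was no higher than in these droplets, and that of Celsr2 (21.2 CPM) was.

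Fzd3 and Fzd6 encode the Frizzled receptors of the pathway. They were highest in different classes, and their Pearson r over 13 class and library profiles was 0.03. Fzd3 (14:65192449-65262463, minus strand) stood at 39.2 and 40.6 CPM in smooth muscle-like cells and 28.6 and 30.3 CPM in fibroblast-like cells. It stood at 31.0 and 39.3 CPM in the few mesothelium-like cells, against 5.98 and 11.9 CPM in epithelium-like cells. Its smooth muscle and fibroblast levels had a ratio interval that included 1 in the control-labelled library and excluded it in the cKO-labelled library.

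Fzd6 (15:39006034-39038188, plus strand) stood at 15.8 and 22.3 CPM in epithelium-like cells and under 1.5 CPM in fibroblast-like cells. Its highest level was in an endothelial cluster led by lymphatic markers, at 82.9 CPM in 31 cells of the control-labelled library and 113 CPM in 102 cells of the cKO-labelled library. These levels were 5.26 times (interval 3.65 to 7.39) and 5.07 times (3.42 to 7.77) the epithelial level. A UMI was found in 38.7% and 52.9% of those endothelial cells, at median depths of 5617 and 5686.5 UMIs, against 0.669% and 0% of macrophage or monocyte-like cells at 7810 and 5613 UMIs. After thinning each cell to 1000 UMIs, 3.23% and 10.8% of the endothelial cells had one. A finer clustering split off 9 and 27 cells with blood endothelial markers. In those 27 cells of the cKO-labelled library Fzd6 stood at 86.3 CPM and in the 75 remaining lymphatic-like cells at 122 CPM. Fzd6 was therefore high in both endothelial groups of that library, on 29 UMIs in the 27 cells. The split was not clean, as those 27 cells also held the lymphatic gene Prox1 at 89.2 CPM, against 1930 CPM in the 75 lymphatic-like cells. In the control-labelled library the blood endothelial cells held 1 Fzd6 UMI, too few to place the level.

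Vangl1 and Vangl2 encode the 4-pass membrane proteins that bind Prickle. Vangl2 (1:172000960-172028444, minus strand) stood at 15.5 and 14.1 CPM in epithelium-like cells, with 9.54 and 8.11 CPM in smooth muscle-like cells and 4.79 and 6.69 CPM in fibroblast-like cells. The epithelial and smooth muscle levels did not differ by more than counting error in either library. Vangl2 had 0 UMIs in the 299 and 210 macrophage or monocyte-like cells, which allows up to 1.14 and 2.07 CPM. Vangl1 (3:102153583-102204693, minus strand) stood at 8.20 and 19.3 CPM in epithelium-like and 10.6 and 5.25 CPM in smooth muscle-like cells. In fibroblast-like cells it stood at 6.97 and 7.80 CPM. The epithelial and fibroblast levels of Vangl1 differed by more than counting error in the cKO-labelled library only. The paralogues had a Pearson r of 0.82 over 13 class and library profiles.

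Dvl1, a Dishevelled protein that carries the Frizzled signal into the cell, and Scrib, a scaffold of lateral membranes that binds Vangl proteins, had UMIs in every class compared. Dvl1 (4:155847402-155859303, plus strand) ran from 16.5 CPM in macrophage or monocyte-like cells of the cKO-labelled library to 62.3 CPM in epithelium-like cells of the control-labelled library. Scrib (15:76047158-76069784, minus strand) ran from 12.1 CPM in macrophage or monocyte-like to 54.9 CPM in epithelium-like cells. Empty droplets held 49.7 and 30.5 CPM of Dvl1 and 26.6 and 31.4 CPM of Scrib. The immune levels of Dvl1 in both libraries, and its fibroblast and smooth muscle levels in the control-labelled library, were under those of the droplets, as were the macrophage or monocyte-like and dendritic-like levels of Scrib in both. Scrib was the member with the highest level in T or NK-like cells, at 43.2 and 40.7 CPM. In the control-labelled library that level did not differ from the 42.3 CPM of epithelium-like cells by more than counting error. Genes on the opposite strand overlap Fzd6 (Gm26704), Vangl1 (Gm16160) and Dvl1 (Tas1r3), and the sources used here do not say how strand was used in counting.

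Ptk7, a pseudokinase receptor of the pathway, and Ror2, a receptor of Wnt5a, are described together. Ror2 (13:53109312-53286124, minus strand) was the most abundant member, with 5591 of the members' UMIs. It stood at 205 and 331 CPM in smooth muscle-like cells and 125 and 178 CPM in fibroblast-like cells, against 15 and 17.1 CPM in epithelium-like cells. As class sums, smooth muscle-like cells differed from fibroblast-like cells, and these from epithelium-like cells, by more than counting error in both libraries. Smooth muscle-like cluster 11 stood under the fibroblast class level, at 36.9 and 85.3 CPM. It held 206 of the 313 cells of the class in the control-labelled library and 337 of the 681 in the cKO-labelled library. Smooth muscle-like clusters 12 (184 and 266 CPM) and 17 (349 and 465 CPM) stood above the fibroblast class level. Free RNA stood at 27.1 and 54.7 CPM in empty droplets, above the epithelial levels. Ptk7 (17:46564471-46629504, minus strand) stood at 16.0 and 38.0 CPM in fibroblast-like, 12.7 and 17.2 CPM in smooth muscle-like and 10.5 and 26.0 CPM in epithelium-like cells. Its epithelial and smooth muscle levels did not differ by more than counting error in either library. Empty droplets held 11.0 CPM (6.61 to 17.1) and 17.0 CPM (10.3 to 26.6) of Ptk7. The epithelial and smooth muscle levels of both libraries, and the fibroblast level of the control-labelled library, lay within those intervals. In the 82 and 31 mesothelium-like cells Ptk7 stood at 43.8 and 42.9 CPM.

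**Figure D1:**
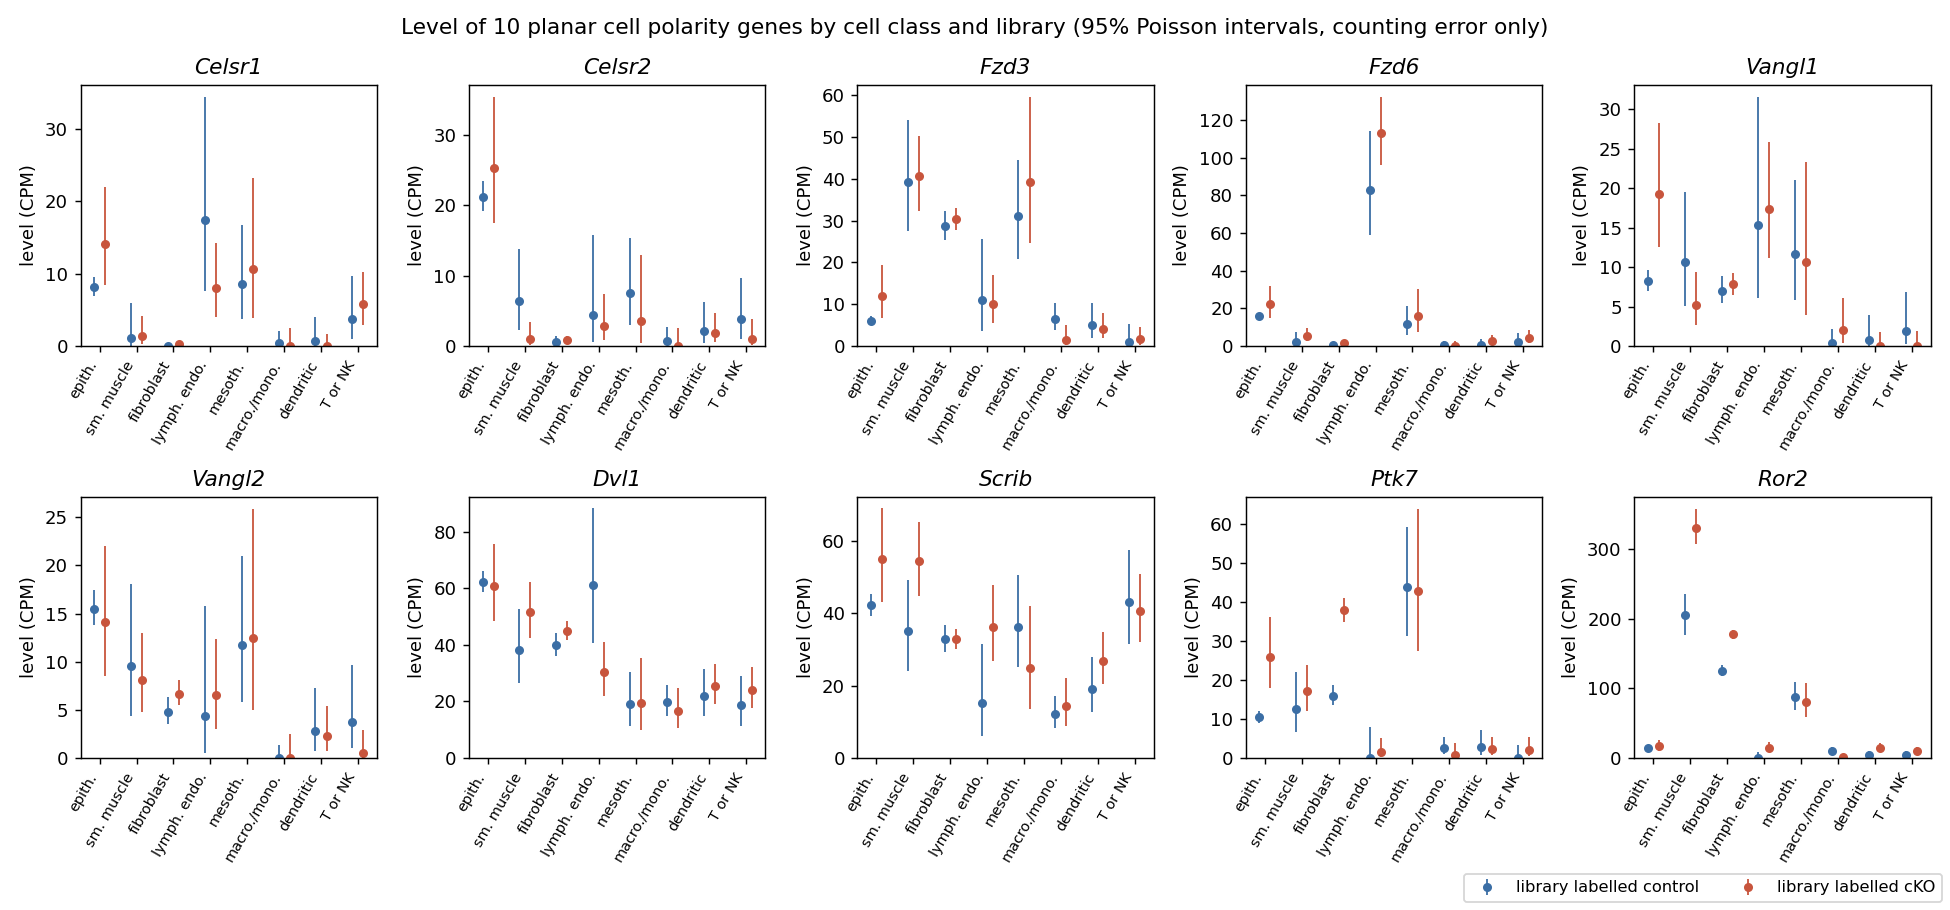
Level in CPM (y axis, linear, own scale for each gene) of the 10 genes in 8 cell classes, with 1 point per library and bars for the 95% Poisson interval of counting error. Celsr2 is highest in epithelium-like cells, Ror2 in fibroblast-like and smooth muscle-like cells, and Fzd6 in endothelial cells led by lymphatic markers, at 82.9 and 113 CPM.

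Between all cells and the 6 compared classes held at equal shares, 9 of the 10 ratios between the libraries moved by more than 0.1 on the log2 scale. The second value leaves out the cells of the other classes, so a move mixes equal shares with the loss of those cells. For Fzd6, which went from 0.844 to 1.50, the endothelial cells left out held 64.2% of the Fzd6 UMIs of the cKO-labelled library. The all-cell level of Celsr2 was 11.5 CPM in the control-labelled library and 2.18 CPM in the cKO-labelled library (ratio 0.189, interval 0.143 to 0.246), and that of Vangl2 was 9.86 and 5.69 CPM (0.577, 0.478 to 0.695). Epithelium-like cells held 92.6% of the Celsr2 UMIs and 79.2% of the Vangl2 UMIs of the control-labelled library. With the 6 compared classes weighted by their mean share of UMIs the ratio of Celsr2 was 1.11 and that of Vangl2 1.02. Celsr1 went from 0.386 to 1.72, a value without an interval, and its epithelial level in the cKO-labelled library rests on 19 UMIs. Within epithelium-like cells the ratio of Celsr1 was 2.42 (1.03 to 5.10) in cluster 0 and 0.627 (0.288 to 1.22) in cluster 9. Ror2 was 48.4 CPM and 129 CPM over all cells (2.66, 2.51 to 2.81) and its ratio at fixed shares was 1.43. Ptk7 kept a ratio of 2.21 over all cells and 2.29 at fixed shares. Fewer cells of a class and less RNA per cell cannot be told apart from the all-cell values.

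**Figure D2:**
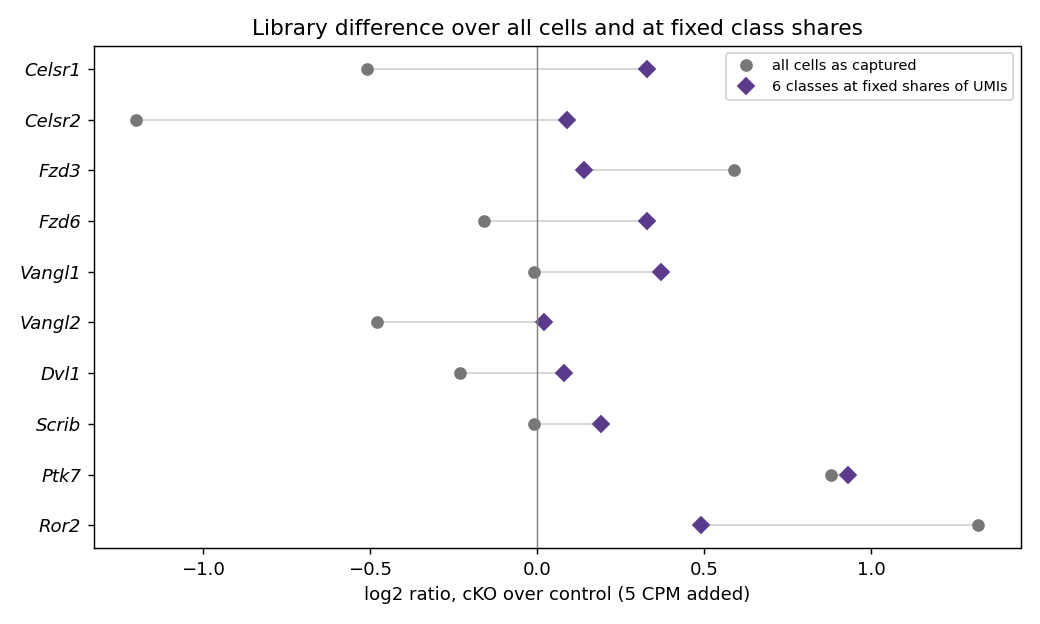
Log2 ratio of the cKO-labelled library over the control-labelled library (x axis, 5 CPM added to each level) for each gene, over all cells (grey circles) and with 6 classes at fixed shares of UMIs (purple diamonds). Celsr2 moves from -1.20 to 0.09 and Ror2 from 1.32 to 0.49, while Ptk7 is at 0.88 and 0.93.

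Among smooth muscle-like cells Ror2 was higher in the cKO-labelled library: 205 CPM (interval 177 to 236) and 331 CPM (307 to 357), a ratio of 1.62 (1.38 to 1.91). The share of cells with a Ror2 UMI was 20.4% and 32.6%, and 9.58% and 16.7% after thinning to 1000 UMIs. In macrophage or monocyte-like cells, which hold few Ror2 UMIs at a median of 7810 and 5613 UMIs a cell, the unthinned share was 3.34% and 0.952%. Scrib stood at 35.0 and 54.4 CPM (1.56, 1.05 to 2.37), Dvl1 at 38.2 and 51.5 CPM (1.35, 0.918 to 2.03) and Fzd3 at 39.2 and 40.6 CPM (1.03, 0.695 to 1.57). Vangl1 was 10.6 and 5.25 CPM on 10 and 11 UMIs (0.495, 0.191 to 1.30), and Celsr2, on 6 and 2 UMIs, was 6.36 and 0.954 CPM. Of the 8 members with at least 10 UMIs, 1 (Ror2) was past 1.5-fold higher on the scale with 5 CPM added and 1 (Vangl1) past 1.5-fold lower, against 18.1% and 7.94% of all genes. With median of ratios scaling those shares of all genes were 10.6% and 11.8%, and Ror2, at 0.50 on the log2 scale, was under the fold. The clusters made up the class in different shares: cluster 11, low in Ror2, held 40.3% of its UMIs in the control-labelled library and 25.7% in the cKO-labelled library. With clusters at fixed shares the log2 ratio of Ror2 was 0.47, also under the fold. The median log2 ratio of the members was 0.36, and 0.18 over all genes tested.

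In fibroblast-like cells Ptk7 stood at 16.0 CPM (13.6 to 18.8) in the control-labelled library and 38.0 CPM (35.0 to 41.1) in the cKO-labelled library, a ratio of 2.37 (1.98 to 2.85). Ror2 stood at 125 and 178 CPM (1.42, 1.33 to 1.52). Fzd3 (1.06, 0.911 to 1.23), Vangl1 (1.12, 0.826 to 1.53) and Dvl1 (1.12, 0.992 to 1.28) had intervals that included 1. So did Scrib (0.998, 0.867 to 1.15), and the intervals of Fzd3, Dvl1 and Scrib hold no difference of 1.5-fold. Those of Vangl2 (1.40, 0.981 to 2.02), Fzd6 (2.18, 0.858 to 6.58) and Celsr2 (1.39, 0.501 to 4.41) also included 1 but were wider. Fzd6 rests there on 6 and 22 UMIs and Celsr2 on 6 and 14. Of 9 members with enough UMIs, 1 was past 1.5-fold higher and 0 lower, against 3.75% and 2.11% of all genes (3.09% and 2.70% with median of ratios scaling). The members' median was 0.15 and that of all genes 0.05.

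In epithelium-like cells 3 of the 10 members were past 1.5-fold higher and 0 lower, against 25.9% and 10.2% of all genes (14.7% and 17.8% with median of ratios scaling), so the count is near the background. The 3 were Ptk7 at 10.5 and 26.0 CPM (2.47, 1.67 to 3.55), Vangl1 at 8.20 and 19.3 CPM (2.35, 1.49 to 3.58) and Fzd3 at 5.98 and 11.9 CPM (1.99, 1.10 to 3.37). Celsr1 (1.74, 1.02 to 2.82) and Scrib (1.30, 1.01 to 1.65) were under the fold with intervals that excluded 1. The 3 rest on 35, 26 and 16 UMIs in the 109 cells of the cKO-labelled library. Empty droplets held 11.0 and 17.0 CPM of Ptk7. They held 6.35 CPM (3.17 to 11.4) and 8.97 CPM (4.30 to 16.5) of Fzd3, and the epithelial Fzd3 levels of both libraries lay within those intervals. The part of free RNA in the Ptk7 and Fzd3 ratios was not tested. Celsr2 (1.19, 0.812 to 1.69), Fzd6 (1.41, 0.936 to 2.06), Vangl2 (0.910, 0.540 to 1.45), Dvl1 (0.977, 0.771 to 1.22) and Ror2 (1.14, 0.709 to 1.74) had intervals that included 1. Different clusters made up the class in each library: cluster 8, at a median of 36572 UMIs a cell, held 226 cells of the control-labelled library, 54.5% of that library's epithelial UMIs, and 0 cells of the cKO-labelled library. In it the summed level of the 10 genes was 151 CPM (144 to 159), against 338 CPM in cluster 0 and 230 CPM in cluster 9 of the same library. Without the clusters that came over 90% from 1 library, the summed log2 ratio of the members was -0.03 in place of 0.37. Ptk7 was then 0.56, Vangl1 0.46 and Fzd3 0.08, all under the fold, and Scrib was past it at 0.66. That left cluster 9 alone, since cluster 0, with 66 of the 109 cells of the cKO-labelled library, was among those removed.

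**Figure D3:**
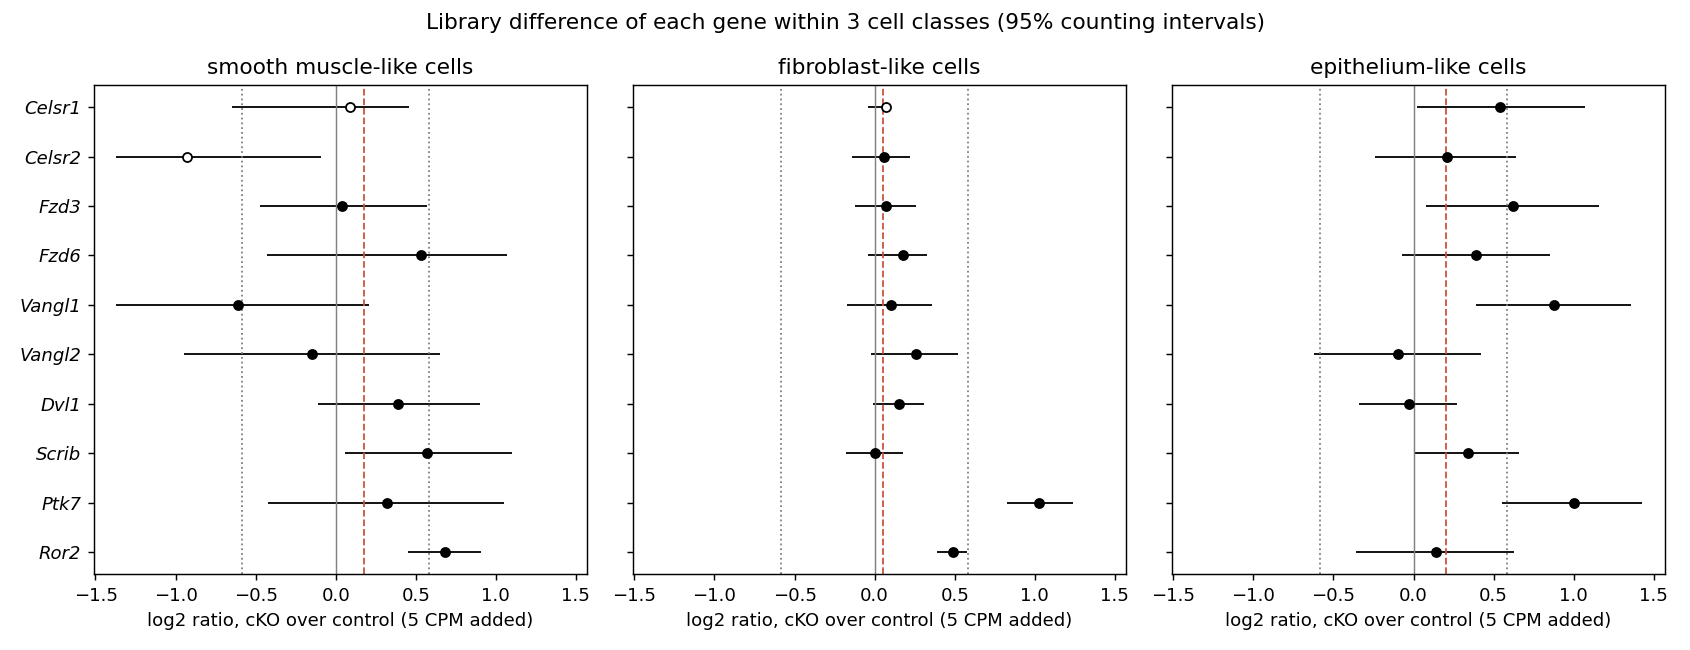
Log2 ratio of the cKO-labelled library over the control-labelled library for each gene within 3 classes, with 95% counting intervals. Dotted lines mark 1.5-fold, the dashed line the median of all genes tested, and open points genes under 10 UMIs. Ptk7 in fibroblast-like cells (1.03) and Ror2 in smooth muscle-like cells (0.68) have intervals clear of 0.

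Among clusters with at least 20 cells in each library, Ror2 was higher in the cKO-labelled library in 2 of 2 smooth muscle-like and 5 of 5 fibroblast-like ones. Smooth muscle-like cluster 17, with Myh11 and the progesterone receptor gene Pgr among its leading genes, stood at 349 and 465 CPM (1.33, 1.11 to 1.60). Cluster 11, led by the contractile genes Actg2 and Acta2 and at 0.285 of its libraries' median depth, stood at 36.9 and 85.3 CPM (2.31, 1.25 to 4.56). The cluster 11 levels rest on 14 and 46 UMIs. Empty droplets held 27.1 CPM (19.9 to 36.1) and 54.7 CPM (41.9 to 70.3) of Ror2, and the part of free RNA in the cluster 11 ratio was not tested. Fibroblast-like cluster 4, led by Thbs2 and Mmp3, stood at 169 and 232 CPM (1.37, 1.22 to 1.54) and cluster 5, led by Mmp3 and Dpt, at 108 and 158 CPM (1.46, 1.28 to 1.67). The intervals of fibroblast-like clusters 6, 7 and 14 included 1, and the chemokine gene Cxcl5 and Ptx3 led cluster 7. Cluster 25, led by Dio2 and the retinoic acid enzyme gene Aldh1a2, with 16 cells in the control-labelled library and 223 in the cKO-labelled library, went the other way, at 328 and 241 CPM. In the control-labelled library alone its level ran from 36.9 CPM in cluster 11 to 349 CPM in cluster 17.

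Ptk7 was not shared among fibroblast-like clusters in this way. Of the 5, only cluster 6 had an interval that excluded 1. Cluster 6, led by collagen genes, stood at 41.6 and 115 CPM (2.76, 1.90 to 4.11), and cluster 25 held 374 of the 613 fibroblast-like Ptk7 UMIs of the cKO-labelled library, at 82.2 CPM. Cluster 4 stood at 18.2 and 14.0 CPM (0.769, 0.504 to 1.17), cluster 5 at 10.3 and 13.9 CPM (1.35, 0.856 to 2.16) and cluster 7 at 10.4 and 8.65 CPM (0.835, 0.450 to 1.58). Cluster 14 had 4 and 0 UMIs. Without cluster 25 the class log2 ratio of Ptk7 was 0.30 in place of 1.03, and no member was past 1.5-fold. Scrib in cluster 6 stood at 18.6 and 37.7 CPM (2.02, 1.11 to 3.84), and Vangl1 there at 9.86 and 1.05 CPM on 9 UMIs and 1 UMI.

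**Figure D4:**
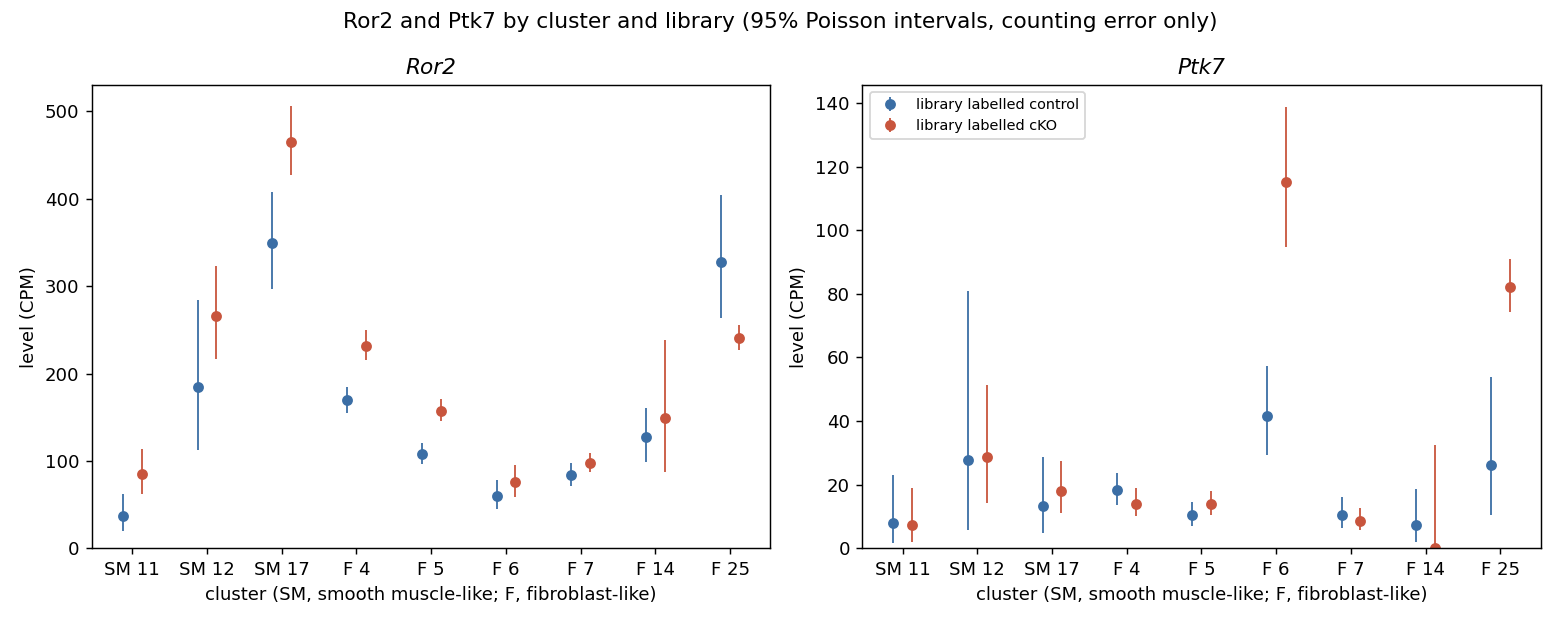
Level in CPM (y axis, linear) of Ror2 and Ptk7 in each smooth muscle-like (SM) and fibroblast-like (F) cluster with at least 10 cells in the control-labelled library, by library, with 95% Poisson intervals. Ror2 is higher in the cKO-labelled library in most clusters but not in F 25, while Ptk7 is set apart in F 6 and F 25.

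Within epithelium-like cluster 9 (254 and 43 cells), Celsr2 stood at 41.4 and 22.1 CPM (0.535, 0.331 to 0.827) and Vangl2 at 25.8 and 10.6 CPM (0.410, 0.199 to 0.761), while Scrib stood at 30.5 and 51.0 CPM (1.67, 1.19 to 2.31). In cluster 0 (661 and 66 cells) Vangl1 stood at 8.18 and 32.5 CPM (3.97, 1.70 to 8.57) and Ptk7 at 12.1 and 35.8 CPM (2.95, 1.36 to 5.91). The gland gene Foxa2 stood at 1.11 and 29.8 CPM in cluster 9. The part of that difference in the Celsr2 and Vangl2 values was not tested.

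In the 3 immune classes the members were few. Empty droplets held 27.1 and 54.7 CPM of Ror2, above its level in all 3 classes in both libraries. They held 6.35 and 8.97 CPM of Fzd3. The part of free RNA in the immune ratios was not tested. In macrophage or monocyte-like cells 4 members had enough UMIs, of which 0 were past 1.5-fold higher and 2 lower, against 8.18% and 8.27% of all genes (5.62% and 11.1% with that scaling). Ror2 stood at 10.6 and 2.07 CPM (0.195, 0.0378 to 0.630), from 10 and 2 cells, and Fzd3 at 6.45 and 1.38 CPM (0.214, 0.0239 to 0.90), from 7 cells and 1 cell. Fibroblast markers made up 0.0850% and 0.0627% of the UMIs of these cells, with 6 of 6 markers detected, and their part was not tested. With the highest doublet scores removed, both log2 ratios were 0.26, the opposite direction. In dendritic-like cells, 1 of 4 members (Ror2, 4.97 and 14.8 CPM; 2.99, 1.29 to 8.01) was past the fold higher and 0 lower, against 15.5% and 5.83% (10.7% and 8.12%). Fibroblast markers made up 0.0169% and 0.0413% of the UMIs of those cells, and their part was not tested. In T or NK-like cells 1 of 5 members was past the fold higher (Ror2, 3.76 and 10.4 CPM; 2.78, 0.931 to 11.2) and 0 lower, against 10.7% and 7.56% (8.16% and 9.10%), while Scrib stood at 43.2 and 40.7 CPM.

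Of 41 further genes of the pathway, in 6 lists of core genes, ligands and co-receptors, effectors, the Fat and Dachsous system, Scribble partners and ubiquitin ligases, 32 had enough UMIs in smooth muscle-like cells, where 6 were past 1.5-fold higher and 2 lower, with a median log2 ratio of 0.28 against 0.18 over all genes. These counts are near the shares of all genes, 18.1% and 7.94%. Mapk8, a kinase downstream of Dishevelled, stood at 73.1 and 146 CPM, Dvl3, a paralogue of Dvl1, at 47.7 and 92.6 CPM, and Dlg1, a partner of Scrib, at 46.6 and 85.4 CPM. In fibroblast-like cells 2 of 39 were higher and 0 lower, with a median of 0.05 against 0.05 and shares of all genes of 3.75% and 2.11%. These were Wnt5a, the ligand of Ror2, at 26.3 and 128 CPM (4.87, 4.28 to 5.58), and Invs, at 3.33 and 10.6 CPM. Without cluster 25 the log2 ratio of Wnt5a was 0.55 in place of 2.09 and that of Invs 0.47 in place of 0.90. In epithelium-like cells 8 of 35 were higher and 4 lower, with a median of 0.13 against 0.20, near the shares of all genes of 25.9% and 10.2%. Wnt5a stood at 13.1 and 51.2 CPM, Wnt11 at 1.11 and 11.9 CPM and Ankrd6 at 2.38 and 11.1 CPM. Daam1, a formin downstream of Dishevelled, stood at 88.8 and 43.8 CPM, Pard6b at 123 and 61.6 CPM and Prickle3 at 6.14 and 1.48 CPM. Without the clusters over 90% from 1 library, Daam1 was -0.31 and Pard6b -0.17 in place of -0.94 each on the log2 scale, both under the fold, and Wnt5a was 0.91 in place of 1.63. In macrophage or monocyte-like cells 0 of 23 were higher and 3 lower (all genes 8.18% and 8.27%), in dendritic-like cells 5 and 2 of 28 (15.5% and 5.83%), and in T or NK-like cells 4 and 0 of 26 (10.7% and 7.56%).

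The genes whose level followed each member most closely over the 13 class and library profiles were described by Pearson r. The profiles share libraries and depth, so no p is given. Ror2 was closest to Kctd15 (0.980) and Dzip1l (0.978), and Fzd3 to Ltbp1 (0.972) and Mex3a (0.969). Celsr2 was closest to Mgst3 (0.974) and Kctd1 (0.968), Vangl2 to Myo6 (0.945) and Gphn (0.944), and Fzd6 to Crybb3 (0.975) and Adgrf5 (0.964). Ptk7 was closest to Psmb2 (0.949) and Mettl9 (0.929), Dvl1 to Map1lc3a (0.965) and Fam135a (0.963), and Scrib to Med31 (0.95) and Puf60 (0.943). Celsr1 was closest to Tprn (0.907) and Nrarp (0.899), and Vangl1 to Pla2g12a (0.925) and Spa17 (0.924). Among the members themselves Fzd3 and Ror2 had the highest r, 0.96.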

How the data were processed

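Single-cell RNA was measured in 2 libraries of mouse uterus, 1 per group. The authors deposited unfiltered UMI counts per gene and barcode, with no normalization. The matrix header names Cell Ranger 4 and the submitters' processing notes name Cell Ranger 6.1.1 and mm10; the annotation release is not given in the sources used here. Of the 32285 gene identifiers, 32235 (99.8%) occur in GENCODE vM21.

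Barcodes with 1000 UMIs and 500 genes or more, and no more than 20% mitochondrial UMIs, were taken as cells, which kept 83.35% and 85.69% of the UMIs. Scrublet marked 4 of 7076 cells (0.0565%), so it did not work. Cells of both libraries were clustered together without the 10 members and the 41 list genes (scanpy 1.11.5, anndata 0.12.19, Python 3.11.15, igraph 0.11.9): 2000 variable genes, 30 components, 15 neighbours, Leiden resolution 1.0, no batch correction, 26 clusters. A cluster was called X-like from 3 or more markers, each seen in 10% or more of its cells and at 2 times the median cluster. It stayed unnamed where markers of another class outnumbered its own among its 10 leading genes, where it was shallow with no marker of its own leading, or where it was over 1.5 times as deep as its library with 3 markers of an unrelated class. The 10% limit and the depth limit were set after the clusters were seen. Unnamed clusters held 183 and 315 cells. Cluster 13 (135 and 291 cells), with Il2rb, Gzma and Klrk1 among its leading genes, had under 3 markers of any class and stayed unnamed. The T or NK-like class, clusters 10 and 21, leaves it out and may not cover all NK cells. Immune genes were among the leading genes of fibroblast-like cluster 7 (Cxcl5, Ptx3) and of the epithelium-like clusters (Lcn2). A cluster drawn over 90% from 1 library may reflect that library rather than a type.

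UMIs were summed per class and library, scaled to CPM and compared as the log2 ratio after adding 5 CPM, which understates changes of low genes. Genes with at least 10 UMIs in the class were counted, past 1.5-fold, in classes of at least 100 cells in both libraries. Intervals (scipy 1.17.1) are exact: Poisson for levels, Clopper-Pearson for shares and conditional for ratios, and a count of 0 was given the limit of 3 counts. The calculation was tested on simulated data. Empty droplets were barcodes of 10 to 100 UMIs. Named genes were the members, Prickle1, the 3 highest and 3 lowest list genes past the fold whose interval excluded 1, and the 2 genes closest to each member. The members, lists and markers were chosen with earlier results of these data known. The alternatives were 12, of which 1, clusters at fixed shares, was added after the data were seen.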

Additional observations from a re-analysis of the deposited data

Results flagged for a closer look

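Some ratios of the cKO-labelled library over the control-labelled library went in opposite directions in different cell classes, each with a counting interval clear of 1. The difference between the classes was not tested. Ror2 had a ratio of 1.62 in smooth muscle-like cells, 1.42 in fibroblast-like cells and 2.99 in dendritic-like cells, and 0.195 in macrophage or monocyte-like cells. Fzd3 had a ratio of 1.99 in epithelium-like cells and 0.214 in macrophage or monocyte-like cells. Empty droplets held 27.1 and 54.7 CPM of Ror2, above its levels in dendritic-like and macrophage or monocyte-like cells of both libraries. They held 6.35 and 8.97 CPM of Fzd3, beside 6.45 and 1.38 CPM in macrophage or monocyte-like cells. In epithelium-like cells Fzd3 stood at 5.98 and 11.9 CPM, within the droplet intervals of both libraries (3.17 to 11.4 and 4.30 to 16.5). The macrophage or monocyte-like values rest on 28 and 3 UMIs of Ror2 and 17 and 2 UMIs of Fzd3. With the highest Scrublet scores removed both turn to a log2 ratio of 0.26, and Ror2 is 0.21 at resolution 2.0, so the opposite direction is lost. Fzd3 in epithelium-like cells is 0.08 in place of 0.62 without clusters over 90% from 1 library.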

How the results depend on the processing

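With 1 library per group no replicate could be left out. No paired analysis was possible because each group has 1 library. Ror2 stayed higher in the cKO-labelled library under all 12 alternatives, at log2 ratios of 0.47 to 0.93 in smooth muscle-like and 0.34 to 0.50 in fibroblast-like cells. Median of ratios scaling moved the median log2 ratio of all genes from 0.18 to 0.03 in smooth muscle-like and from 0.20 to -0.02 in epithelium-like cells. The cause of the changes below was not tested.

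Counts of members past 1.5-fold changed as follows, higher ones first. In smooth muscle-like cells they were 3 with 1 CPM added, 0 with median of ratios scaling and 2 after thinning, and in fibroblast-like cells 0 without clusters over 90% from 1 library and 0 at fixed cluster shares. In epithelium-like cells they were 1 with 20 CPM added (Ptk7) and 1 without those clusters, where it was Scrib (0.66) and not Ptk7, Vangl1 or Fzd3. In dendritic-like cells they were 0 with 20 CPM, after thinning and with classes from each cell's own markers. In T or NK-like cells they were 2 with 1 CPM, and 0 with 20 CPM, with the highest Scrublet scores removed and with own markers. Lower ones were 0 in smooth muscle-like cells with 20 CPM and own markers, and 5 after thinning and 2 without the 1-library clusters in epithelium-like cells. In macrophage or monocyte-like cells they were 0 with 20 CPM, thinning, resolution 2.0, Scrublet removal and own markers, and 1 at resolution 0.5.

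The summed log2 ratio was 0.33 in smooth muscle-like cells with median of ratios scaling. In fibroblast-like cells it was 0.33 with that scaling, 0.26 after thinning, 0.30 without the 1-library clusters and 0.33 at fixed cluster shares. In epithelium-like cells it was -0.00, -0.16, -0.03 and 0.09 under the same 4. In macrophage or monocyte-like cells it was -0.07 after thinning and at resolution 0.5, 0.09 at resolution 2.0, 0.26 with Scrublet removal and 0.05 with own markers.

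Among values past 1.5-fold, those that changed sign were Vangl1 in smooth muscle-like cells after thinning (0.12), and in macrophage or monocyte-like cells Ror2 at resolution 2.0 (0.21) and, with Scrublet removal, Ror2 (0.26) and Fzd3 (0.26). Values under the fold also changed sign. After thinning, in epithelium-like cells, Celsr1 went from 0.54 to -1.65, Scrib from 0.34 to -0.67 and Ror2 from 0.14 to -0.81, and Scrib in macrophage or monocyte-like cells went from 0.18 to -0.62. Fzd6 in epithelium-like cells went from 0.39 to -0.30 without the 1-library clusters. Thinned levels rest on few UMIs: Vangl2 and Celsr1 had 0 in epithelium-like cells of the cKO-labelled library.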
